A study of Mus musculus with 18 samples.

Results

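Aldehyde dehydrogenase transcripts were followed in the liver of mice given 1 of 4 chemicals or a control regimen. The 6 genes were Aldh1a1, Aldh1a7, Aldh1b1, Aldh2, Aldh3a2 and Aldh1l1. They were found as the probe sets whose platform annotation names exactly 1 of these symbols, which gave 11 of the 45101 probe sets on the array. All 11 lay above their array's median signal in all 18 arrays, so 6 of 6 genes were among the 12169 genes tested. Where a gene had several probe sets, the one with the highest mean signal stood for it.

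Aldehyde dehydrogenases oxidise aldehydes to carboxylic acids with NAD or NADP as the electron acceptor. The liver is rich in them and uses them to clear acetaldehyde made from ethanol, aldehydes released by lipid peroxidation, and aldehydes formed from foreign compounds. Aldh1a1 is the cytosolic retinaldehyde dehydrogenase that makes retinoic acid, and Aldh1a7 is its close rodent paralogue, whose rat counterpart is known as the phenobarbital-inducible aldehyde dehydrogenase. Aldh1b1 and Aldh2 are mitochondrial enzymes of acetaldehyde oxidation, Aldh3a2 is the membrane-bound fatty aldehyde dehydrogenase, and Aldh1l1 is the cytosolic 10-formyltetrahydrofolate dehydrogenase of folate metabolism.

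Liver RNA of female B6C3F1 mice was hybridised to Affymetrix whole-genome mouse arrays, with 1 array per animal and 3 animals in each of 6 groups. The mice were 5 weeks old when exposure began and 18 weeks old after 13 weeks of it. Feed controls ate rodent chow. 1,5-naphthalenediamine and N-(1-naphthyl)ethylenediamine (as the dihydrochloride) were each given in feed at 2000 ppm, and pentachloronitrobenzene was given in feed at 8187 ppm, all 7 days a week. 2,3-benzofuran was given by gavage in corn oil at 240 mg/kg on 5 days a week, and corn oil controls received 5 ml/kg of the vehicle on the same days. The labels class 1,5-naphthalenediamine and 2,3-benzofuran as positive and N-(1-naphthyl)ethylenediamine and pentachloronitrobenzene as negative for liver tumours in long-term bioassays. The study addressed whether short exposures tell such chemicals apart by liver gene expression. The 3 feed chemicals share the 3 feed controls, so their comparisons are not independent of each other. Animals are named by the numbers in the labels. The p-values measure the spread between animals of these groups.

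Aldh1a1 and Aldh1a7 lie side by side on mouse chromosome 19, at 20492583 to 20643463 and 20692953 to 20727556 in the GRCm38.p6 RefSeq annotation, on opposite strands with 49489 bases between them. Aldh1b1 lies on chromosome 4 (45799022 to 45804608), Aldh2 on chromosome 5 (121566027 to 121593824), Aldh1l1 on chromosome 6 (90550768 to 90599171) and Aldh3a2 on chromosome 11 (61223417 to 61267528). Promoter windows from RefSeq were matched for 5 of the 6 genes. They are shown for Aldh1a1 and Aldh1a7, whose signals moved together in the data below, as the 250 bases before the annotated start, 5′ to 3′ along the gene. For Aldh1a1 the window is that of the second annotated start, chr19:20601718-20601967 on the plus strand, and for Aldh1a7 it is chr19:20727557-20727806 on the minus strand. Capitals mark the longest run of bases that both windows share.
Aldh1a1: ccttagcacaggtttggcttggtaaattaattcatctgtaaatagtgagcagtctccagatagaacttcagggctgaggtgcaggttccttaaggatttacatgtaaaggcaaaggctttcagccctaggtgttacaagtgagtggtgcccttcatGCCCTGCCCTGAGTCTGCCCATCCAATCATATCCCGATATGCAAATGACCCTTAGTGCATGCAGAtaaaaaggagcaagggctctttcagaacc
Aldh1a7: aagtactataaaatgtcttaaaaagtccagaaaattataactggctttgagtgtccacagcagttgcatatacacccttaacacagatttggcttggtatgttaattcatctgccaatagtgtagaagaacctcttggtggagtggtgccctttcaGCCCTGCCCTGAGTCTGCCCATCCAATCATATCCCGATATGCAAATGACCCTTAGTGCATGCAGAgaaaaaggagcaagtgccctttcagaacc
The shared run is 65 bases long and spans positions -94 to -30 from the start in both genes. Over the 110 bases next to the start, aligned without gaps, 104 were identical. The window of the other annotated Aldh1a1 start was unlike these, with 77 of 300 positions equal to Aldh1a7 against 177 of 300 for the start shown, and the arrays do not tell which start was used. Both strands of the 300-base windows (250 before and 50 after the start) were searched for short motifs. The antioxidant response core TGACNNNGC was in 0 of the 6 member windows and in 12.39% of all 32851 windows. The xenobiotic response core GCGTG occurred in the window of Aldh3a2, at -117, and in 32.39% of all windows. CCAAT stood at -72 in both windows shown, occurred also in the windows of Aldh1b1, Aldh3a2 and Aldh1l1, and was in 37.41% of all windows. The octamer ATGCAAAT, chosen after the sequences were seen, stood at -56 in both windows shown and in 1.74% of all windows. Both positions lie inside the shared run, so a match in 1 of the pair entails it in the other. The percentages count a motif anywhere in a window. TATAAA occurred in the Aldh1a7 window, at -244, and in 13.62% of all windows.

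Array medians lay between 4.25 and 4.35 on the deposited log2 scale, and correlations between arrays between 0.979 and 0.995. The tested genes as a whole shifted upward under treatment: the median change was 0.18 with 1,5-naphthalenediamine, 0.11 with 2,3-benzofuran, 0.15 with N-(1-naphthyl)ethylenediamine and 0.15 with pentachloronitrobenzene, against 0.04 between the controls. Each change is therefore given after subtraction of that median, in log2 units with the standard error of the limma fit, while calls (limma's moderated test on the deposited values, Benjamini-Hochberg adjusted p under 0.05 over all tested genes) use the deposited scale. With 1,5-naphthalenediamine 3836 of 4859 called genes were higher as deposited, 1485 of 2962 after quantile normalization and 1122 of 4147 once each array was centred on the tested genes (its median over them taken off). The same counts were 3013 of 3936, 1537 of 2841 and 1367 of 3986 with 2,3-benzofuran. They were 3004 of 3536, 966 of 1756 and 668 of 2504 with N-(1-naphthyl)ethylenediamine, and 1778 of 2249, 367 of 893 and 312 of 1939 with pentachloronitrobenzene. 5 arrays stood apart with a high 18S signal: 1,5-naphthalenediamine animal 4, 2,3-benzofuran animals 6 and 10, and N-(1-naphthyl)ethylenediamine animals 12 and 14 lay at 7.93 to 11.56, while the other 13 lay at 5.94 to 6.97. The RNA integrity number was 7.83 ± 0.231 (SD, n = 3) with N-(1-naphthyl)ethylenediamine against 8.9 ± 0.173 (SD, n = 3) in feed controls, and beta-actin 3′ minus 5′ signals were 1.45 to 1.85 against 0.90 to 0.99. The RNA integrity number was 8.97 ± 0.586 (SD, n = 3) with 2,3-benzofuran against 8.33 ± 0.808 (SD, n = 3) in corn oil controls. RNA integrity and the beta-actin difference moved with the N-(1-naphthyl)ethylenediamine group but were not confined to it. The beta-actin difference was 1.75 in 1,5-naphthalenediamine animal 4 and 1.29 in 2,3-benzofuran animal 10. Corn oil animal 24 had the lowest RNA integrity number of all arrays, 7.4. High 18S signals also occurred with 1,5-naphthalenediamine and 2,3-benzofuran. Values with RNA integrity or the beta-actin difference as a covariate, or without the 5 arrays, are given beside the calls that they end. Fits without the 5 arrays keep only animal 8 with 2,3-benzofuran and only animal 15 with N-(1-naphthyl)ethylenediamine.

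With 1,5-naphthalenediamine, 4 of the 6 genes rose (Aldh1a1, Aldh1a7, Aldh1b1 and Aldh1l1) and none fell, where 39.9 percent of all tested genes were called. With 2,3-benzofuran, 2 rose (Aldh1a1 and Aldh1a7), where 32.3 percent of all genes were called. With N-(1-naphthyl)ethylenediamine, 3 rose (Aldh1a7, Aldh1b1 and Aldh1l1), where 29.1 percent were called, and with pentachloronitrobenzene 2 rose (Aldh1a1 and Aldh1a7), where 18.5 percent were called. No gene of the 6 fell in any of these comparisons. Of the 11 calls, 7 were also made under all 3 other scalings tried, namely Aldh1a1, Aldh1a7 and Aldh1b1 with 1,5-naphthalenediamine, Aldh1a1 and Aldh1a7 with 2,3-benzofuran, Aldh1b1 with N-(1-naphthyl)ethylenediamine and Aldh1a7 with pentachloronitrobenzene.

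Groups did not overlap with their control for 4 genes with 1,5-naphthalenediamine, against 46.5 percent of all genes, and for 3 genes with 2,3-benzofuran, against 49.2 percent. They did not overlap for 3 genes with N-(1-naphthyl)ethylenediamine, against 38.2 percent, and for 3 genes with pentachloronitrobenzene, against 38.2 percent. The median change of the 6 genes was 0.40, 0.12, 0.16 and 0.14 above the median of all tested genes with 1,5-naphthalenediamine, 2,3-benzofuran, N-(1-naphthyl)ethylenediamine and pentachloronitrobenzene. Between the controls, corn oil against feed, it was 0.22 above, more than with the last 3 chemicals. In whole liver, fewer cells of a type and less RNA per cell cannot be told apart.

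**Figure D1:**
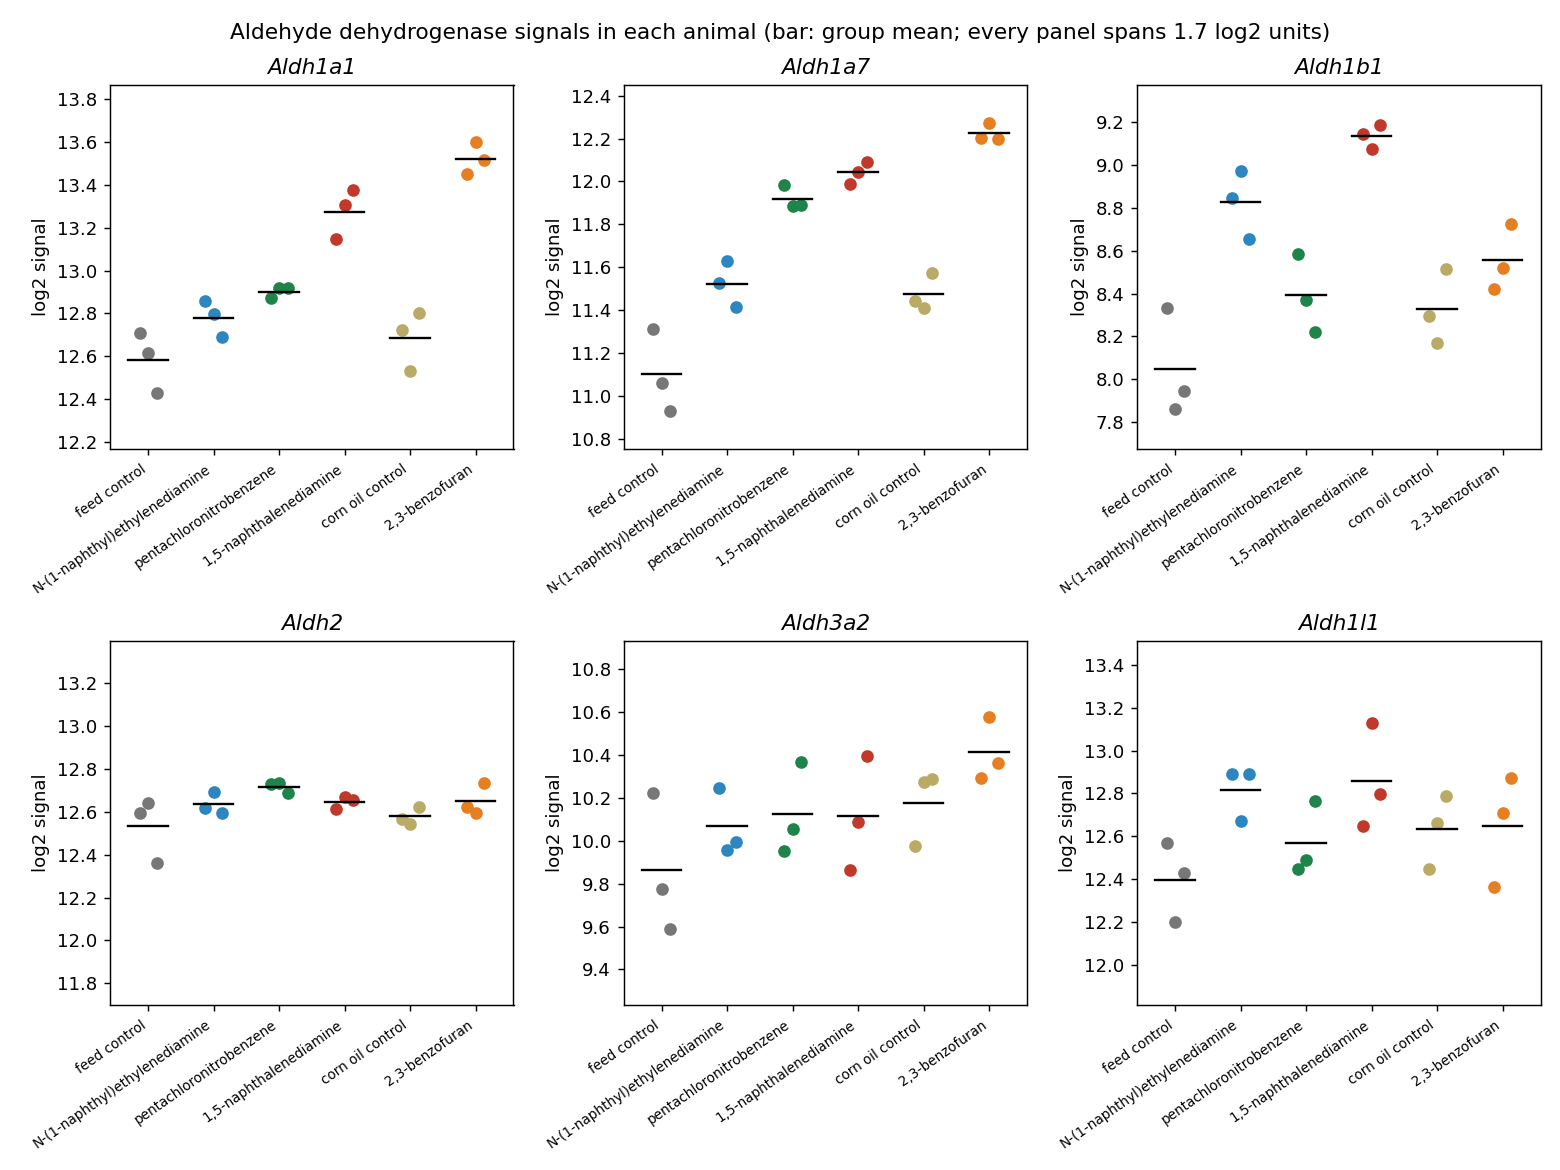
Deposited log2 signal of the 6 aldehyde dehydrogenases (1 panel per gene, each with its own vertical axis) in the 6 groups; points are animals, 3 per group, and bars are group means. Aldh1a1 lies between 13.15 and 13.60 in both groups classed as positive and between 12.43 and 12.92 in the other groups, while the Aldh2 groups lie close together.

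Aldh1a1, the retinaldehyde dehydrogenase, rose with both chemicals classed as positive. Its log2 signal was 12.71, 12.61 and 12.43 in feed controls (12.58 ± 0.141, SD, n = 3) and 13.15, 13.30 and 13.37 with 1,5-naphthalenediamine (13.28 ± 0.117, SD, n = 3). It was 12.72, 12.53 and 12.80 in corn oil controls (12.69 ± 0.140, SD, n = 3) and 13.45, 13.60 and 13.52 with 2,3-benzofuran (13.52 ± 0.0764, SD, n = 3). All treated animals of both comparisons lay above all animals of their control, and 2,3-benzofuran animals also above 1,5-naphthalenediamine animals. The change was 0.52 ± 0.0836, or 1.43-fold, with 1,5-naphthalenediamine (limma adjusted p = 2.46e-05) and 0.73 ± 0.0836, or 1.65-fold, with 2,3-benzofuran (limma adjusted p = 2.35e-06). Against the median of the 92 genes within 0.5 log2 units of its own mean signal, Aldh1a1 was 0.58 higher with 1,5-naphthalenediamine and 0.82 higher with 2,3-benzofuran.

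With the negative chemicals the Aldh1a1 signals stood closer to the control. They were 12.86, 12.80 and 12.69 with N-(1-naphthyl)ethylenediamine (12.78 ± 0.0832, SD, n = 3), where the lowest animal lay below the highest feed control, and 12.87, 12.92 and 12.92 with pentachloronitrobenzene (12.90 ± 0.028, SD, n = 3), all above the feed controls. The change with N-(1-naphthyl)ethylenediamine was 0.04 ± 0.0836 and did not pass (limma adjusted p = 0.0834). With pentachloronitrobenzene it was 0.17 ± 0.0836, or 1.12-fold, and passed on the deposited scale (limma adjusted p = 0.019). That call was lost after quantile normalization (adjusted p = 0.242), with arrays centred on the tested genes (0.406), with the arrays of this comparison alone (0.0795), and without feed control animal 29 (0.0912), pentachloronitrobenzene animal 16 (0.052) or animal 18 (0.0577). In the order of group means, 2,3-benzofuran, 1,5-naphthalenediamine, pentachloronitrobenzene, N-(1-naphthyl)ethylenediamine, corn oil and feed control, the step from 1,5-naphthalenediamine to pentachloronitrobenzene passed the test between neighbours (limma adjusted p = 0.0145) and the other 4 steps did not.

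Aldh1a7, the paralogue, rose with all 4 chemicals on the deposited scale. Feed controls had log2 signals of 11.31, 11.06 and 10.93 (11.10 ± 0.194, SD, n = 3), against 11.99, 12.05 and 12.09 with 1,5-naphthalenediamine (12.04 ± 0.0526, SD, n = 3). Animals given N-(1-naphthyl)ethylenediamine had 11.53, 11.63 and 11.41 (11.52 ± 0.108, SD, n = 3) and those given pentachloronitrobenzene 11.98, 11.88 and 11.89 (11.92 ± 0.0547, SD, n = 3). No treated animal overlapped the feed controls, and the N-(1-naphthyl)ethylenediamine animals were the lowest of the 3 feed chemicals. The gene rose by 0.77 ± 0.0866 or 1.70-fold with 1,5-naphthalenediamine (limma adjusted p = 1.02e-06), by 0.67 ± 0.0866 or 1.59-fold with pentachloronitrobenzene (limma adjusted p = 1.89e-05), and by 0.27 ± 0.0866 or 1.20-fold with N-(1-naphthyl)ethylenediamine (limma adjusted p = 0.00303). By the size of the moderated statistic Aldh1a7 ranked 13 of 12169 genes with pentachloronitrobenzene and 27 with 1,5-naphthalenediamine. The N-(1-naphthyl)ethylenediamine call was lost with arrays centred on the tested genes (adjusted p = 0.0872), with the beta-actin 3′ minus 5′ difference as a covariate (0.106) and without the 5 arrays of high 18S signal (0.194).

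Corn oil animals had Aldh1a7 signals of 11.44, 11.41 and 11.57 (11.48 ± 0.087, SD, n = 3), all above the feed controls, and 2,3-benzofuran animals had 12.20, 12.27 and 12.20 (12.22 ± 0.04, SD, n = 3), all above the corn oil controls. The rise with 2,3-benzofuran was 0.64 ± 0.0866, or 1.56-fold (limma adjusted p = 1.09e-05). In the order of Aldh1a7 group means, 2,3-benzofuran, 1,5-naphthalenediamine, pentachloronitrobenzene, N-(1-naphthyl)ethylenediamine, corn oil and feed control, the step from pentachloronitrobenzene to N-(1-naphthyl)ethylenediamine passed (limma adjusted p = 0.0184) and the other 4 did not. Between the controls themselves, corn oil against feed, the difference was 0.34 ± 0.0866 and did not pass (limma adjusted p = 0.104), where 0.123 percent of all genes were called. Without feed control animal 27 it was 0.42 and passed (limma adjusted p = 0.00932). No gene of the 6 was called between the controls, 1 (Aldh1a7) had an unadjusted limma p under 0.05, and 1 (again Aldh1a7) did not overlap, against 11.1 percent of all genes. Set against the feed controls in place of its vehicle, 2,3-benzofuran also gave calls for Aldh1b1 (0.34, limma adjusted p = 0.00616) and Aldh3a2 (0.38, limma adjusted p = 0.0114).

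Across the 18 arrays the signals of Aldh1a1 and Aldh1a7 had a Pearson correlation of 0.915, and of 0.744 after each group's mean was taken off. The latter was not particular to the paralogues: Aldh1a7 and Aldh1b1, on different chromosomes, had 0.769 after the same step. These numbers describe arrays that share their groups and their RNA. The plotted animals show where the paralogues part: pentachloronitrobenzene animals reached Aldh1a7 signals close to those of 1,5-naphthalenediamine animals, while their Aldh1a1 signals stayed below. The paralogues are close in sequence next to the starts shown above, the probe sequences were not used here, and how far each probe set reports the other transcript was not tested, so their values are uncertain in this respect.

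**Figure D2:**
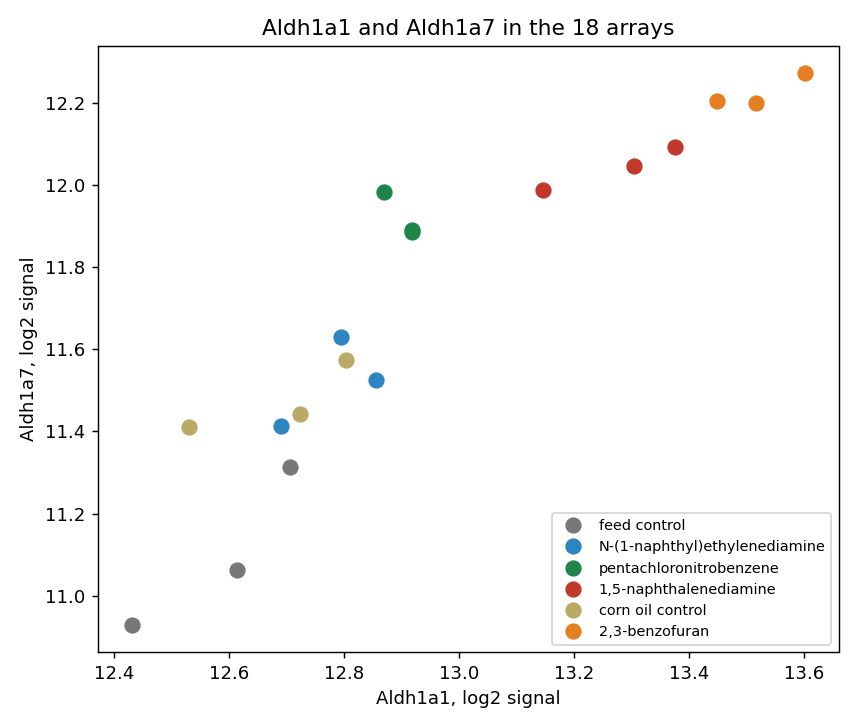
Deposited log2 signal of Aldh1a1 (horizontal) against Aldh1a7 (vertical) in each of the 18 animals, coloured by group. The pentachloronitrobenzene animals have Aldh1a7 signals of 11.88 to 11.98 beside 11.99 to 12.09 with 1,5-naphthalenediamine, and Aldh1a1 signals of 12.87 to 12.92 beside 13.15 to 13.37.

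Aldh1b1, a mitochondrial acetaldehyde dehydrogenase that can also oxidise retinaldehyde, rose with both naphthalene amines. Its log2 signal was 8.33, 7.86 and 7.95 in feed controls (8.05 ± 0.253, SD, n = 3), 9.14, 9.07 and 9.19 with 1,5-naphthalenediamine (9.13 ± 0.057, SD, n = 3) and 8.85, 8.97 and 8.66 with N-(1-naphthyl)ethylenediamine (8.83 ± 0.160, SD, n = 3). Both groups lay above all feed controls, and all 1,5-naphthalenediamine animals lay above all N-(1-naphthyl)ethylenediamine animals. The change was 0.91 ± 0.135, or 1.88-fold, with 1,5-naphthalenediamine (limma adjusted p = 2.89e-05) and 0.62 ± 0.135, or 1.54-fold, with N-(1-naphthyl)ethylenediamine (limma adjusted p = 0.00148). The N-(1-naphthyl)ethylenediamine call was lost with the beta-actin covariate (0.62, limma adjusted p = 0.0779) and without the 5 arrays of high 18S signal, which leaves 1 N-(1-naphthyl)ethylenediamine array assumed to vary like the other groups (0.47, limma adjusted p = 0.0932).

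With the other chemicals Aldh1b1 did not pass. Signals were 8.59, 8.37 and 8.22 with pentachloronitrobenzene (8.39 ± 0.184, SD, n = 3), overlapping the feed controls, and the change was 0.20 ± 0.135 (limma adjusted p = 0.0756). They were 8.42, 8.52 and 8.72 with 2,3-benzofuran (8.56 ± 0.153, SD, n = 3) against 8.30, 8.17 and 8.51 in corn oil controls (8.33 ± 0.175, SD, n = 3), which overlapped, and the change was 0.12 ± 0.135 (limma adjusted p = 0.2). Without feed control animal 27, the highest of its group, the pentachloronitrobenzene difference passed (limma adjusted p = 0.0196). None of the 5 steps between neighbours in the order of Aldh1b1 group means passed.

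Aldh2, the main mitochondrial acetaldehyde dehydrogenase, did not pass with any chemical. Feed controls had log2 signals of 12.59, 12.64 and 12.36 (12.53 ± 0.150, SD, n = 3), and the group means of the other 5 groups lay between 12.58 and 12.72. The pentachloronitrobenzene animals, at 12.73, 12.73 and 12.69 (12.72 ± 0.0245, SD, n = 3), lay above all feed controls, while those given 1,5-naphthalenediamine, at 12.61, 12.67 and 12.66, and N-(1-naphthyl)ethylenediamine, at 12.62, 12.69 and 12.60, overlapped them. Changes were -0.06 ± 0.0689 with 1,5-naphthalenediamine (95% confidence interval -0.21 to 0.08, limma adjusted p = 0.195), -0.04 with 2,3-benzofuran (-0.18 to 0.11, limma adjusted p = 0.439), -0.05 with N-(1-naphthyl)ethylenediamine (-0.20 to 0.09, limma adjusted p = 0.269) and 0.04 with pentachloronitrobenzene (-0.11 to 0.18, limma adjusted p = 0.0663). The p-values test the changes as deposited, before the median was taken off, which were all positive: 0.11, 0.07, 0.10 and 0.18 in the same order. The pentachloronitrobenzene difference passed without feed control animal 28 (limma adjusted p = 0.0302) and after the median of all probe sets was taken off each array (limma adjusted p = 0.04).

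Aldh2 has 5 probe sets, and the dimmer ones did not give the same picture. The probe set 1457155_at read 5.55, 5.21 and 5.09 in feed controls and 5.83, 6.35 and 6.26 with 1,5-naphthalenediamine, without overlap, a change of 0.69 ± 0.153 (limma adjusted p = 0.000558). On it 2,3-benzofuran (0.31, limma adjusted p = 0.0428) and N-(1-naphthyl)ethylenediamine (0.34, limma adjusted p = 0.0249) also passed. The probe set 1434987_at went the other way: it read 6.70, 7.18 and 8.31 in feed controls and 6.59, 6.56 and 6.69 with 1,5-naphthalenediamine, a change of -0.96 ± 0.296 (limma adjusted p = 0.0426), and -0.98 with N-(1-naphthyl)ethylenediamine (limma adjusted p = 0.0436), with feed control animal 29 far above the other animals. The probe sets 1437410_at and 1434988_x_at did not pass with any chemical. Which transcript region each of them reads was not given in the sources used here.

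**Figure D3:**
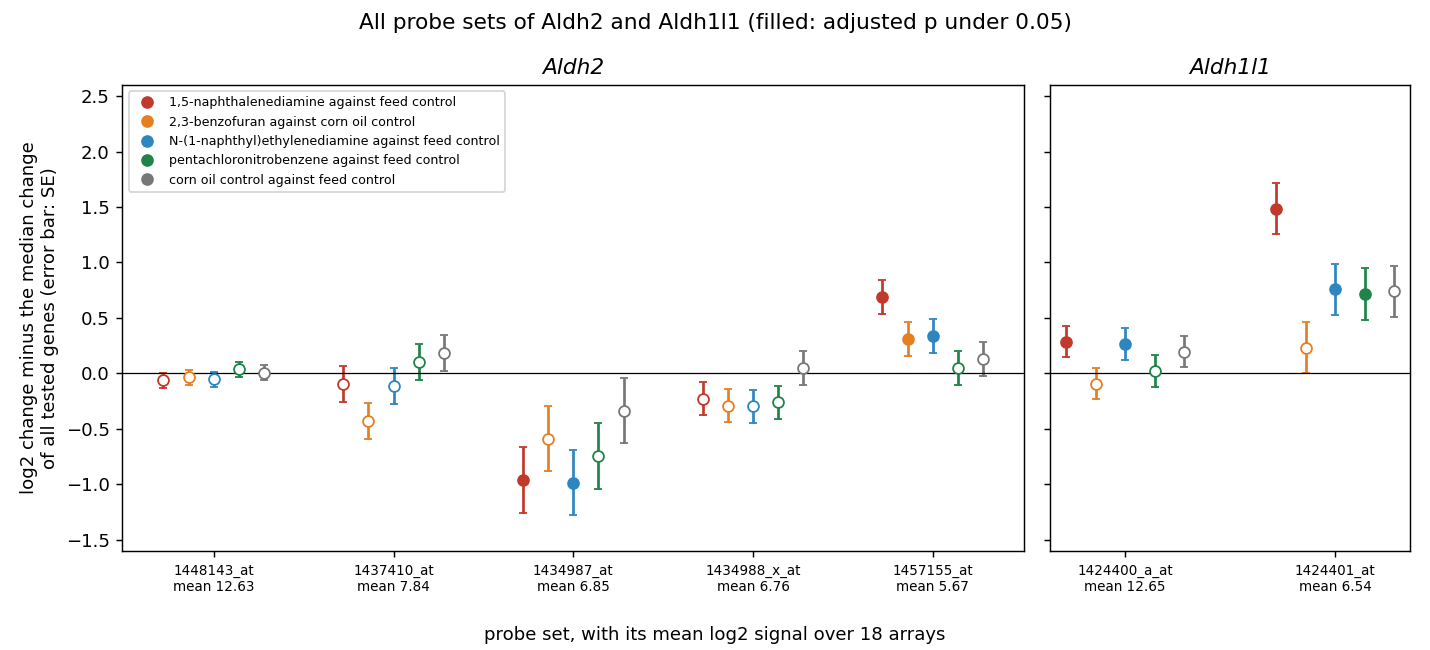
Change against control in log2 units, less the median change of the tested genes, for each probe set of Aldh2 and Aldh1l1 under the 4 chemicals and for corn oil against feed, with standard errors. The Aldh2 probe set that stands for the gene stays within -0.06 to 0.04, while 1457155_at reaches 0.69 and 1434987_at -0.96 with 1,5-naphthalenediamine.

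Aldh3a2, the fatty aldehyde dehydrogenase, varied widely within groups and did not pass with any chemical. Feed controls had log2 signals of 10.22, 9.78 and 9.59 (9.86 ± 0.325, SD, n = 3), and 1,5-naphthalenediamine, N-(1-naphthyl)ethylenediamine and pentachloronitrobenzene animals, at 9.86 to 10.40, 9.96 to 10.25 and 9.95 to 10.37, overlapped them. 2,3-benzofuran animals had 10.29, 10.58 and 10.37 (10.41 ± 0.148, SD, n = 3) and corn oil controls 9.97, 10.27 and 10.29 (10.18 ± 0.177, SD, n = 3): the lowest of the former lay just above the highest of the latter. Changes were 0.08 with 1,5-naphthalenediamine (95% confidence interval -0.26 to 0.42, limma adjusted p = 0.217), 0.13 with 2,3-benzofuran (-0.21 to 0.46, limma adjusted p = 0.277), 0.05 with N-(1-naphthyl)ethylenediamine (-0.29 to 0.39, limma adjusted p = 0.346) and 0.11 with pentachloronitrobenzene (-0.22 to 0.45, limma adjusted p = 0.234). Without feed control animal 27 the 1,5-naphthalenediamine difference passed (limma adjusted p = 0.0397). No step between neighbours in the order of group means passed for Aldh3a2 or for Aldh2.

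Aldh1l1, the folate enzyme, was called higher with both naphthalene amines, with calls that depended on the scaling. Its log2 signal was 12.57, 12.20 and 12.43 in feed controls (12.40 ± 0.186, SD, n = 3), 12.65, 13.13 and 12.80 with 1,5-naphthalenediamine (12.86 ± 0.245, SD, n = 3) and 12.89, 12.67 and 12.89 with N-(1-naphthyl)ethylenediamine (12.82 ± 0.127, SD, n = 3). Neither treated group overlapped the feed controls. The change was 0.28 ± 0.140, or 1.22-fold, with 1,5-naphthalenediamine (limma adjusted p = 0.016) and 0.26 ± 0.140 with N-(1-naphthyl)ethylenediamine (limma adjusted p = 0.0335). Both calls were lost after quantile normalization (adjusted p = 0.117 and 0.174) and with arrays centred on the tested genes (0.279 and 0.336). In the order of group means, 1,5-naphthalenediamine, N-(1-naphthyl)ethylenediamine, 2,3-benzofuran, corn oil, pentachloronitrobenzene and feed control, no step between neighbours passed.

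The Aldh1l1 calls also rested on single arrays. The 1,5-naphthalenediamine call was lost without animal 4 (0.17, limma adjusted p = 0.0976), which had a high 18S signal, and without feed control animal 28 (0.15, limma adjusted p = 0.0664). The N-(1-naphthyl)ethylenediamine call was lost without feed control animal 28 (limma adjusted p = 0.117) or 29 (0.0736) or N-(1-naphthyl)ethylenediamine animal 12 (0.112) or 15 (0.0922). The 1,5-naphthalenediamine call was also lost with the beta-actin difference as a covariate (limma adjusted p = 0.0836) and without the 5 arrays of high 18S signal (0.0903), and the N-(1-naphthyl)ethylenediamine call with the RNA integrity number as a covariate (0.11, limma adjusted p = 0.41), with array weights (0.0714) and without those 5 arrays (0.102). With the beta-actin covariate the N-(1-naphthyl)ethylenediamine change turned to -0.083 (limma adjusted p = 0.875). Signals of 12.45, 12.49 and 12.77 with pentachloronitrobenzene (limma adjusted p = 0.376) overlapped the feed controls, and those of 12.37, 12.71 and 12.87 with 2,3-benzofuran (limma adjusted p = 0.947) overlapped the corn oil controls at 12.45, 12.66 and 12.79.

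The dimmer Aldh1l1 probe set, 1424401_at, rose further with both naphthalene amines. It read 5.44, 5.33 and 6.20 in feed controls and 6.98, 7.40 and 7.57 with 1,5-naphthalenediamine, without overlap. Its change was 1.49 ± 0.231 with 1,5-naphthalenediamine (limma adjusted p = 8.52e-05) and 0.76 with N-(1-naphthyl)ethylenediamine (limma adjusted p = 0.00892), and it was also called with pentachloronitrobenzene (0.72, limma adjusted p = 0.0199). With 2,3-benzofuran it changed by 0.23 and did not pass (limma adjusted p = 0.269), where the brighter probe set changed by -0.09. Its corn oil controls, at 6.54, 6.41 and 6.35, lay above the feed controls, though that difference did not pass (0.74, limma adjusted p = 0.233).

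**Figure D4:**
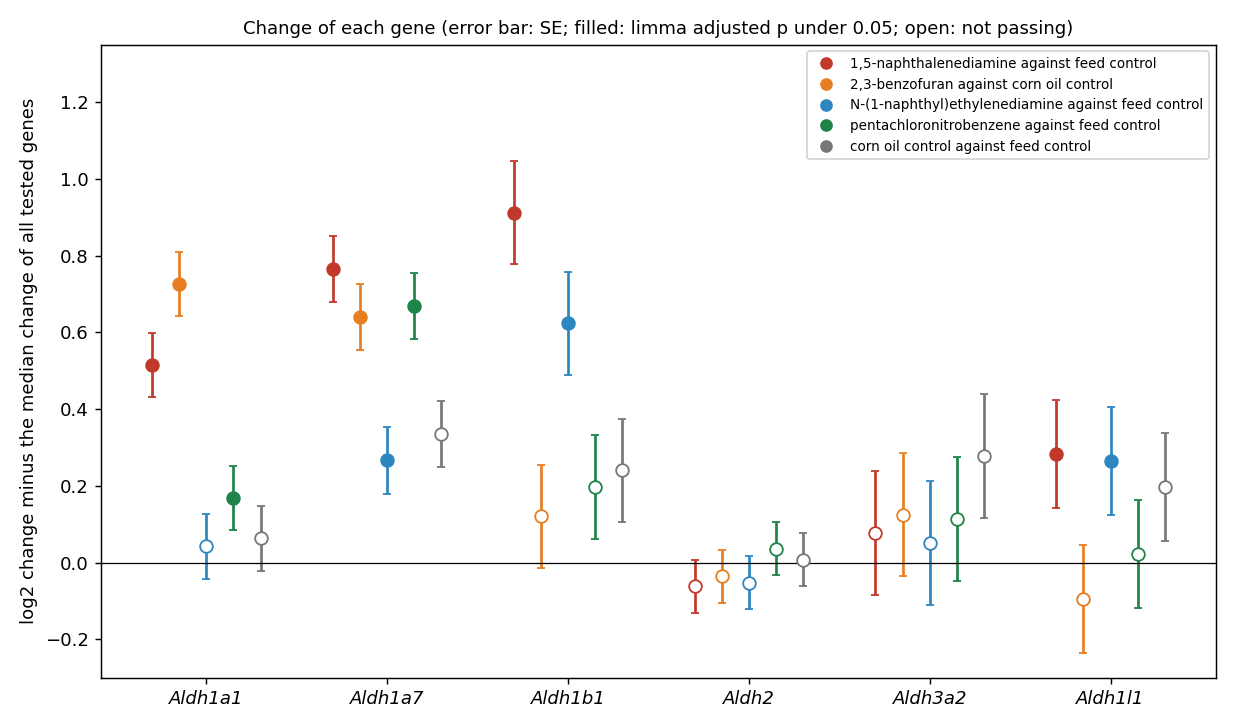
Change of each of the 6 genes against its control in log2 units, less the median change of the tested genes (the zero line), for the 4 chemicals and for corn oil against feed; error bars are standard errors, and filled points passed limma at an adjusted p of 0.05. Aldh1a1 and Aldh1a7 stand at 0.52 to 0.77 with 1,5-naphthalenediamine and 2,3-benzofuran, Aldh1b1 at 0.91 with 1,5-naphthalenediamine, and Aldh2 at -0.06 to 0.04 with the 4 chemicals.

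The naphthalene amines were compared directly at the matched dose of 2000 ppm by weight, which for N-(1-naphthyl)ethylenediamine includes its dihydrochloride salt. 1,5-naphthalenediamine carries its amino groups on both rings of naphthalene, while N-(1-naphthyl)ethylenediamine carries an ethylenediamine chain on 1 ring. Of the 6 genes, Aldh1a1 and Aldh1a7 were higher with 1,5-naphthalenediamine, where 5.47 percent of all genes were called. The difference was 0.50 (95% confidence interval 0.32 to 0.67, limma adjusted p = 0.00169) for Aldh1a1 and 0.52 (0.34 to 0.70, limma adjusted p = 0.00149) for Aldh1a7. With the RNA integrity number as a covariate these differences were 0.40 (limma adjusted p = 0.0772) and 0.44 (limma adjusted p = 0.0663), and without the 5 arrays of high 18S signal they were 0.58 (limma adjusted p = 0.0879) and 0.64 (limma adjusted p = 0.0728). Differences that did not pass were 0.31 for Aldh1b1 (0.03 to 0.60, limma adjusted p = 0.196), 0.01 for Aldh2 (-0.13 to 0.16, limma adjusted p = 0.95), 0.05 for Aldh3a2 (-0.29 to 0.39, limma adjusted p = 0.906) and 0.04 for Aldh1l1 (-0.25 to 0.34, limma adjusted p = 0.908).

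The other differences between chemicals join different doses, and those with 2,3-benzofuran also different routes and controls. Without the 5 arrays of high 18S signal they rest on fewer animals, with single ones left for 2,3-benzofuran and N-(1-naphthyl)ethylenediamine. 1,5-naphthalenediamine exceeded pentachloronitrobenzene in Aldh1a1 by 0.34 (limma adjusted p = 0.0145) and in Aldh1b1 by 0.71 (limma adjusted p = 0.00277), where 4.03 percent of all genes were called. N-(1-naphthyl)ethylenediamine lay below pentachloronitrobenzene in Aldh1a7, with a difference of -0.43 (limma adjusted p = 0.0184) that was lost with the RNA integrity covariate (adjusted p = 0.135), where 2.69 percent were called. The effect of 2,3-benzofuran on Aldh1b1 was smaller than that of 1,5-naphthalenediamine, by -0.83 ± 0.190 (limma adjusted p = 0.037), where 0.961 percent were called, and it was lost in each of the fits without 2,3-benzofuran animal 6 or 8, corn oil animal 24 or 25, feed control animal 28 or 29, 1,5-naphthalenediamine animal 2, 4 or 5, or pentachloronitrobenzene animal 18 (limma adjusted p 0.0503 to 0.128). The effect of 2,3-benzofuran on Aldh1a1 exceeded that of N-(1-naphthyl)ethylenediamine by 0.67 (limma adjusted p = 0.00384), where 5.59 percent were called, and that of pentachloronitrobenzene by 0.52 (limma adjusted p = 0.0195), where 2.89 percent were called. Both were lost with the RNA integrity covariate (adjusted p = 0.272 and 0.151). In all, 8 of 36 differences passed, each under all 3 other scalings as well, but 2 of them passed with the RNA integrity covariate and 1 without the 5 arrays of high 18S signal. The 2 were those between 1,5-naphthalenediamine and pentachloronitrobenzene in Aldh1a1 (limma adjusted p = 0.0286) and Aldh1b1 (0.00676), and the 1 was that in Aldh1b1 (0.0316). The Aldh1b1 difference between the effects of 2,3-benzofuran and 1,5-naphthalenediamine was lost with the RNA integrity covariate (limma adjusted p = 0.0821), with the beta-actin covariate (0.0688) and without the 5 arrays (0.339), and the Aldh1a7 difference between N-(1-naphthyl)ethylenediamine and pentachloronitrobenzene also with the beta-actin covariate (0.257) and without the 5 arrays (0.142). Without the 5 arrays the Aldh1a1 differences of 1,5-naphthalenediamine from pentachloronitrobenzene (limma adjusted p = 0.159) and of the 2,3-benzofuran effect from those of N-(1-naphthyl)ethylenediamine (0.0754) and pentachloronitrobenzene (0.158) were lost as well. The Aldh1a1 difference between 1,5-naphthalenediamine and pentachloronitrobenzene was lost without 1,5-naphthalenediamine animal 4 or 5 or pentachloronitrobenzene animal 16 (limma adjusted p 0.0666 to 0.0914), and that between the effects of 2,3-benzofuran and pentachloronitrobenzene without 2,3-benzofuran animal 8, corn oil animal 24 or pentachloronitrobenzene animal 16 (0.0544 to 0.0681). The Aldh1a7 difference between N-(1-naphthyl)ethylenediamine and pentachloronitrobenzene was lost without N-(1-naphthyl)ethylenediamine animal 12 or 15 or pentachloronitrobenzene animal 16 (limma adjusted p 0.0573 to 0.108).

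Set by class, the mean effect of the chemicals labelled positive exceeded that of the negatives in 1 gene, Aldh1a1, by 0.51 ± 0.0724 (limma adjusted p = 0.000237), where 7.2 percent of all genes were called. All 6 animals given a positive chemical lay above all 6 given a negative one. The Aldh1a1 class difference kept its call with the RNA integrity covariate (0.41, limma adjusted p = 0.0378) and with the beta-actin covariate (0.52, limma adjusted p = 0.000386). Without the 5 arrays of high 18S signal it was 0.60, with only animal 8 left for 2,3-benzofuran and only animal 15 for N-(1-naphthyl)ethylenediamine. Aldh1a7 differed by 0.23 ± 0.075 and did not pass (limma adjusted p = 0.0772), though it did after quantile normalization (0.00791), with array weights (0.0152) and without feed control animal 29 (0.0149). With 2 chemicals in each class, the classes cannot be told apart from the chemicals themselves.

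For each gene the 3 tested genes with the most similar signal were found by Pearson correlation over the 18 arrays, a description over arrays that share groups and quality. For Aldh1a1 they were Tkt, which encodes transketolase (0.975), Srr (0.973) and Hfe (0.97). For Aldh1a7 they were Pir, which encodes pirin (0.959), Spryd7 (0.959) and Stradb (0.957). Tkt changed by 0.85, 1.00, 0.36 and 0.43 and Pir by 1.61, 1.33, 0.55 and 0.99 with 1,5-naphthalenediamine, 2,3-benzofuran, N-(1-naphthyl)ethylenediamine and pentachloronitrobenzene, and all 8 changes passed. They were picked by likeness over the same arrays, so these calls are no separate evidence. With N-(1-naphthyl)ethylenediamine Stradb passed (0.21, limma adjusted p = 0.032). Srr (0.001, limma adjusted p = 0.286), Hfe (-0.003, limma adjusted p = 0.264) and Spryd7 (0.13, limma adjusted p = 0.108) did not. For Aldh1b1 they were Rassf3 (0.902) and the respiratory complex I genes Ndufs3 (0.891) and Ndufa10 (0.891). Those of Aldh1l1 were Gnmt, which encodes glycine N-methyltransferase (0.948), Macrod1 (0.923) and Pdk2 (0.916). Aldh2 and Aldh3a2 had lower values, led by Zc3hav1 (0.877) and Msra (0.846). Among the 6 genes themselves, Aldh2 and Aldh1l1 had the lowest correlation (0.216), and Aldh1b1 had 0.589 with Aldh1a7 and 0.552 with Aldh1a1.

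Of 15 other aldehyde dehydrogenase genes listed, 9 were tested. With 1,5-naphthalenediamine 2 rose: Aldh5a1, the mitochondrial succinate semialdehyde dehydrogenase, by 0.56 ± 0.139 (limma adjusted p = 0.000817) and Aldh7a1, of lysine breakdown, by 0.35 ± 0.0779 (limma adjusted p = 0.000127). With 2,3-benzofuran both rose (0.64, limma adjusted p = 0.000764, and 0.18, limma adjusted p = 0.0104, the latter lost with centred arrays at 0.352) and Aldh4a1, of proline breakdown, fell by 0.69 (limma adjusted p = 0.00271). With N-(1-naphthyl)ethylenediamine 3 passed as deposited (Aldh5a1, Aldh7a1 and Aldh16a1) and with pentachloronitrobenzene 1 (Aldh7a1), and none of these was kept after quantile normalization or with centred arrays. Aldh3b1, Aldh3b2, Aldh6a1, Aldh8a1 and Aldh9a1 did not pass with any chemical. Among all tested genes, 39.9 percent were called as deposited with 1,5-naphthalenediamine and 32.3 percent with 2,3-benzofuran. The shares were 29.1 percent with N-(1-naphthyl)ethylenediamine and 18.5 percent with pentachloronitrobenzene. The median changes of the 9 genes were -0.07, -0.19, -0.02 and 0.01, against the median of all tested genes at zero.

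Genes of alcohol and aldehyde turnover, a list of dehydrogenases, reductases and oxidases (12 of 14 listed were tested), rose in 7 cases with 1,5-naphthalenediamine, 6 with 2,3-benzofuran, 2 with N-(1-naphthyl)ethylenediamine and 3 with pentachloronitrobenzene, and none fell. The shares called over all tested genes were 39.9, 32.3, 29.1 and 18.5 percent in that order. With arrays centred on the tested genes, where most of all genes called were lower, the counts were 4 higher and 3 lower, 4 and 1, 1 and 2, and 1 and 0. Median changes of the list in the main fit, less the median of all tested genes, were 0.16, 0.14, -0.10 and 0.03. Aox1, an aldehyde oxidase that takes aldehydes to acids and also acts on nitrogen heterocycles, rose by 1.99 ± 0.128 with 1,5-naphthalenediamine (limma adjusted p = 8.58e-09), 2.75 with 2,3-benzofuran (limma adjusted p = 4.86e-11) and 1.04 with pentachloronitrobenzene (limma adjusted p = 2.11e-05). Cbr1, a carbonyl reductase, rose by 1.03 with 1,5-naphthalenediamine (limma adjusted p = 5.63e-06) and 1.50 with 2,3-benzofuran (limma adjusted p = 1.11e-07). It was also called with pentachloronitrobenzene (0.34, limma adjusted p = 0.0189). Akr7a5, an aldehyde reductase, rose by 0.42 with N-(1-naphthyl)ethylenediamine (limma adjusted p = 0.00295). It also rose with 1,5-naphthalenediamine (0.37, limma adjusted p = 0.00207) and 2,3-benzofuran (0.30, limma adjusted p = 0.0131).

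Of the retinoid genes, which make the substrate and handle the product of Aldh1a1, 17 of 20 were tested. Among all tested genes, 39.9, 32.3, 29.1 and 18.5 percent were called with the chemicals in the order below. Retinoid counts were 7 higher and 0 lower with 1,5-naphthalenediamine, and 2 and 1 with 2,3-benzofuran. They were 5 and 1 with N-(1-naphthyl)ethylenediamine, and 3 and 1 with pentachloronitrobenzene. With centred arrays, where most of all genes called were lower, they were 3 and 2, 2 and 6, 2 and 3, and 1 and 2. Median changes of the list in the main fit, less the median of all tested genes, were 0.15, -0.09, 0.005 and 0.05. Rdh11, a retinal reductase, rose by 0.83 with 1,5-naphthalenediamine (limma adjusted p = 2.88e-05) and 0.97 with pentachloronitrobenzene (limma adjusted p = 2.6e-05) and fell by 0.64 with N-(1-naphthyl)ethylenediamine (limma adjusted p = 0.00909). It was also the retinoid gene called between the controls, 0.74 higher with corn oil (limma adjusted p = 0.0123, and 0.0533 after quantile normalization). Rdh10, which makes retinaldehyde from retinol, rose by 0.46 with 1,5-naphthalenediamine (limma adjusted p = 0.000182) and 0.43 with 2,3-benzofuran (limma adjusted p = 0.000679).

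Of the folate and one-carbon genes, the pathway of Aldh1l1, 19 of 23 were tested. Among all tested genes, 39.9, 32.3, 29.1 and 18.5 percent were called with the chemicals in the order below. Counts in this list were 7 higher and 1 lower with 1,5-naphthalenediamine, and 3 and 1 with 2,3-benzofuran. They were 8 and 0 with N-(1-naphthyl)ethylenediamine, and 2 and 0 with pentachloronitrobenzene. With centred arrays, where most of all genes called were lower, they were 1 and 2, 2 and 5, 0 and 2, and 0 and 1. Median changes of the list in the main fit, less the median of all tested genes, were -0.01, -0.04, 0.07 and 0.01. Atic, of purine synthesis, rose by 0.76 with 1,5-naphthalenediamine (limma adjusted p = 0.000349) and 0.88 with 2,3-benzofuran (limma adjusted p = 0.000223).

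A list around the substrates of Aldh3a2 joined sphingolipid enzymes, fatty acid hydroxylases, peroxisomal enzymes and the epoxide hydrolase Ephx1, and 12 of its 15 genes were tested. Among all tested genes, 39.9, 32.3, 29.1 and 18.5 percent were called with the chemicals in the order below. Counts in this list were 3 higher and 1 lower with 1,5-naphthalenediamine, and 1 and 3 with 2,3-benzofuran. They were 3 and 1 with N-(1-naphthyl)ethylenediamine, and 3 and 1 with pentachloronitrobenzene. With centred arrays, where most of all genes called were lower, they were 2 and 3, 1 and 3, 0 and 1, and 1 and 1. Median changes of the list in the main fit, less the median of all tested genes, were 0.09, -0.02, 0.02 and -0.01. Ephx1, which turns epoxides into diols and does not itself make fatty aldehydes, rose by 1.64 with 1,5-naphthalenediamine (limma adjusted p = 2.23e-07), 2.29 with 2,3-benzofuran (limma adjusted p = 3.27e-09) and 0.71 with pentachloronitrobenzene (limma adjusted p = 0.00193). Cyp4f14, a fatty acid hydroxylase, fell with 2,3-benzofuran (-0.76, limma adjusted p = 0.00127), 1,5-naphthalenediamine (-0.71, limma adjusted p = 0.00441) and N-(1-naphthyl)ethylenediamine (-0.51, limma adjusted p = 0.0453).

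Hepatocyte markers were high throughout: the mean level of the 13 tested of 14 lay between 12.40 and 12.70 in all 18 arrays. Among all tested genes 39.9, 32.3, 29.1 and 18.5 percent were called with the 4 chemicals in the order below. Counts of the hepatocyte markers were 3 higher and 2 lower with 1,5-naphthalenediamine, 1 and 2 with 2,3-benzofuran, 2 and 0 with N-(1-naphthyl)ethylenediamine, and 1 and 0 with pentachloronitrobenzene. With arrays centred on the tested genes, where most of all genes called were lower, the hepatocyte counts were 1 and 8, 0 and 6, 0 and 4, and 0 and 2. Median changes of these markers in the main fit, less the median of all tested genes, were -0.10, -0.16, -0.07 and -0.08. Of 14 macrophage and Kupffer cell markers, 2 fell with 1,5-naphthalenediamine and 4 with 2,3-benzofuran, and 1 rose with pentachloronitrobenzene, with medians of -0.53, -0.57, -0.05 and 0.11 for the 4 chemicals. With arrays centred on the tested genes 10 fell with 1,5-naphthalenediamine and 12 with 2,3-benzofuran, where most of all genes called were lower too. Their summed level, as a mean per array, was 7.24 to 7.82 in feed controls, 7.65 to 7.99 in corn oil controls, 7.03 to 7.61 with 1,5-naphthalenediamine, 7.19 to 7.58 with 2,3-benzofuran, 7.53 to 7.82 with N-(1-naphthyl)ethylenediamine and 7.57 to 8.08 with pentachloronitrobenzene. Between the classes, 6 of the 14 were lower with the positive chemicals and none higher, where 7.2 percent of all tested genes were called. Of all 12169 tested genes 413 were called lower. Aldh1a1 was higher in that comparison, and the part of these markers in its difference was not tested.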

How the data were processed

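Log2 expression values per probe set were deposited by the authors in the series matrix; how background was corrected, arrays normalized and probes summarised is not stated in these sources. The 64 control probe sets were left out. Probe sets were named through the platform annotation with symbols updated by Entrez identifier: 34945 had 1 gene, 932 several and 9160 none. Those above their array's median in at least 3 of 18 arrays were kept (20712 with 1 gene), and the one with the highest mean stood for each gene, giving 12169 genes. All 18 arrays entered 1 limma 3.58.1 fit (R 4.3.3, empirical Bayes with trend, 12 residual degrees of freedom) with 12 contrasts and Benjamini-Hochberg adjustment over all genes at 0.05. The fit was tested on simulated data. The number of arrays limits the precision. List genes were named by rank of the moderated statistic, up to 3 per list and comparison. Members, lists and tests were chosen with earlier results of these data known. Alternatives were other scalings, filters, weights, covariates, thresholds and single arrays left out. Python 3.11.15, pandas 2.3.3 and matplotlib 3.10.9 were used.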

Additional observations from a re-analysis of the deposited data

Results flagged for a closer look

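Aldh1a1 had a mean effect of the chemicals classed as positive that exceeded that of the negatives by 0.51 (log2, limma adjusted p = 0.000237), a tested difference between groups of chemicals. The signal was higher in all 6 animals given a positive chemical than in any given a negative one.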

How the results depend on the processing

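Counts of the 6 genes called changed as follows. With pentachloronitrobenzene the count of 2 became 1 after quantile normalization, with arrays centred on the tested genes, with the arrays of the comparison alone and at an adjusted p of 0.01, and 3 with centring on all probe sets and with the mean of all probe sets of a gene. With 1,5-naphthalenediamine the count of 4 became 3, without Aldh1l1, after quantile normalization, with centring on the tested genes, with the beta-actin covariate, without the 5 arrays of high 18S signal and at 0.01. With N-(1-naphthyl)ethylenediamine the count of 3 became 2 after quantile normalization, with array weights, with the RNA integrity covariate and at 0.01, 1 with centring on the tested genes, and 0 with the beta-actin covariate and without the 5 arrays of high 18S signal. Between classes the count of 1 became 2 after quantile normalization and with array weights. Of the differences between chemicals, 8 passed, 2 with the RNA integrity covariate, 1 without the 5 arrays, 4 at 0.01 and 6 to 10 under the other settings that moved it. 2,3-benzofuran against the feed control gave 4 in place of 2. Without 1 array, in 18 fits, counts were 3 to 5 with 1,5-naphthalenediamine, 2 to 2 with 2,3-benzofuran, 2 to 4 with N-(1-naphthyl)ethylenediamine, 1 to 3 with pentachloronitrobenzene, 0 to 1 between controls, 1 to 2 between classes and 5 to 9 of the differences. The Aldh1l1 change with N-(1-naphthyl)ethylenediamine turned to -0.083 with the beta-actin covariate, and Aldh2 read on 1457155_at turned to 0.69, 0.31 and 0.34 with 1,5-naphthalenediamine, 2,3-benzofuran and N-(1-naphthyl)ethylenediamine. As deposited, the Aldh2 changes were already positive on the probe set that stands for the gene (0.11, 0.07 and 0.10). The causes were not tested. Of single-gene values, 2242 kept direction and call, 69 lost a call, 19 gained one and 4 reversed. No paired analysis was possible because the animal numbers are not shared between groups.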

Other observations

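Regulators of foreign-compound metabolism and their textbook targets (16 of 16 tested) were called in 12 cases higher and 0 lower with 1,5-naphthalenediamine, 5 and 2 with 2,3-benzofuran, 6 and 0 with N-(1-naphthyl)ethylenediamine, and 8 and 1 with pentachloronitrobenzene. The shares called over all tested genes were 39.9, 32.3, 29.1 and 18.5 percent in that order. With arrays centred on the tested genes, where most of all genes called were lower, the counts were 9 and 1, 4 and 4, 2 and 1, and 6 and 1. Nqo1, a target of the oxidative stress factor Nrf2, rose by 1.90 with 1,5-naphthalenediamine (limma adjusted p = 9.11e-06) and 2.49 with 2,3-benzofuran (limma adjusted p = 4.39e-07). Cyp1a2, a target of the aryl hydrocarbon receptor, rose by 1.39 with 1,5-naphthalenediamine (limma adjusted p = 2.23e-07), 1.26 with N-(1-naphthyl)ethylenediamine (limma adjusted p = 1.72e-05) and 0.86 with pentachloronitrobenzene (limma adjusted p = 9.87e-05). Cyp2b10, a target of the constitutive androstane receptor, rose by 1.87 with pentachloronitrobenzene (limma adjusted p = 0.00276).

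Markers of other liver cells were followed too, with counts as deposited, then with arrays centred on the tested genes. As deposited, 39.9, 32.3, 29.1 and 18.5 percent of all tested genes were called with the 4 chemicals in the order below. On centred arrays most of all genes called were lower with each chemical, by the counts given with the array medians. Of 10 sinusoidal endothelial markers 1 rose and 1 fell with 1,5-naphthalenediamine (centred, 5 fell), 3 fell with 2,3-benzofuran (5), 2 rose with N-(1-naphthyl)ethylenediamine (1 fell) and none passed with pentachloronitrobenzene (2 fell), with medians of -0.22, -0.34, -0.04 and -0.19. Of 12 stellate cell and matrix markers none passed with 1,5-naphthalenediamine (centred, 7 fell), 2 fell with 2,3-benzofuran (6), 2 fell with N-(1-naphthyl)ethylenediamine (5) and 1 rose with pentachloronitrobenzene (2 fell), with medians of -0.40, -0.32, -0.33 and -0.01. Of 7 lymphocyte markers tested 1 fell with 1,5-naphthalenediamine (centred, 6), 2 with 2,3-benzofuran (5) and none with N-(1-naphthyl)ethylenediamine (3) or pentachloronitrobenzene (3), with medians of -0.41, -0.27, -0.26 and -0.26. Of 4 biliary markers tested 1 fell with 1,5-naphthalenediamine (centred, 2), none with 2,3-benzofuran (0), 1 with N-(1-naphthyl)ethylenediamine (3) and none with pentachloronitrobenzene (1), with medians of -0.22, -0.20, -0.51 and -0.30. Of 6 erythroid markers Alas2 was tested and rose by 0.80 with N-(1-naphthyl)ethylenediamine (limma adjusted p = 0.00751). Their part in the changes of the 6 aldehyde dehydrogenases was not tested.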
